A study of Marchantia polymorpha with 6 samples.

Results

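Transposable elements are stretches of DNA that can move or copy themselves within a genome, and an annotation sorts their copies into classes by how they move. In the element annotation of the liverwort Marchantia polymorpha analysed here, 7 of 17 class labels are rare: LINE/unknown, DNA/DTH, TIR/Tc1_Mariner, MITE/DTC, MITE/DTT, MITE/DTH and DNAnona/Helitron. They were taken as every copy whose class and family is none of the 10 common labels (Gypsy, Copia and unknown LTR elements, unknown elements, the DNA transposons DTM, DTC, DTA and DTT, and the miniature elements MITE/DTM and MITE/DTA). The rule gave 411 of 89262 copies, or 0.460%, in 47 families (TE_ numbers below are EDTA family names) that cover 378 kb, or 0.671% of all element bases.

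The study sequenced polyadenylated RNA of whole thalli, the flat plant body, of 14-day-old plants. It compared 3 libraries of Tak-1 wild type with 3 of Mpmet-3. Tak-1 is the male laboratory accession and carries the V sex chromosome. Mpmet-3 is a line labelled as a loss of function of MpMET. Both deposited files are annotations of the Tak-1 genome (MpTak1 version 5.1, revision 2), one of elements and one of genes, with positions in base pairs and no value of any library. Expression of the rare classes in Mpmet-3 and the wild type was not analysed here. All values below are therefore counts and lengths over 1 annotated genome, with no replicate, no sequencing depth and no test, and copies are not replicates of each other.

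LINEs copy themselves through an RNA that is reverse transcribed at the site of insertion. They have no long terminal repeats, and new copies are often cut short at their 5′ end. DTH is the 3-letter code of PIF/Harbinger, DTC of CACTA and DTT of Tc1/Mariner, all transposons that are cut out and pasted elsewhere by a transposase that binds their terminal inverted repeats. MITEs are short, internally deleted relatives of such transposons that encode no transposase, and Helitrons move by a rolling-circle mechanism. MET enzymes maintain CG methylation, which is known in plants to keep many elements silent.

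The 7 labels differed in number, length and makeup. MITE/DTC had the most copies, 155 in 19 families, but covered only 33.9 kb, with a median copy of 200 bp and a range of 82 to 579 bp. LINE/unknown had 118 copies in 3 families and covered 230 kb, 60.8% of the bases of the rare classes, with a median of 1159 bp and 63 copies over 1 kb. DNA/DTH had 74 copies in 13 families that covered 73.3 kb, with a median of 376.5 bp that was 874 bp once pieces within 100 bp were joined and 1069 bp over copies of at least 200 bp. TIR/Tc1_Mariner was 1 family, TE_00000167, with 50 copies, 37.5 kb and a median of 542 bp. MITE/DTT had 9 copies (122 to 579 bp), DNAnona/Helitron 3 (83, 95 and 141 bp) and MITE/DTH 2 (148 and 368 bp). For comparison, the median copy of all elements was 348 bp, and that of Gypsy elements, the largest class, was 569 bp.

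**Figure D1:**
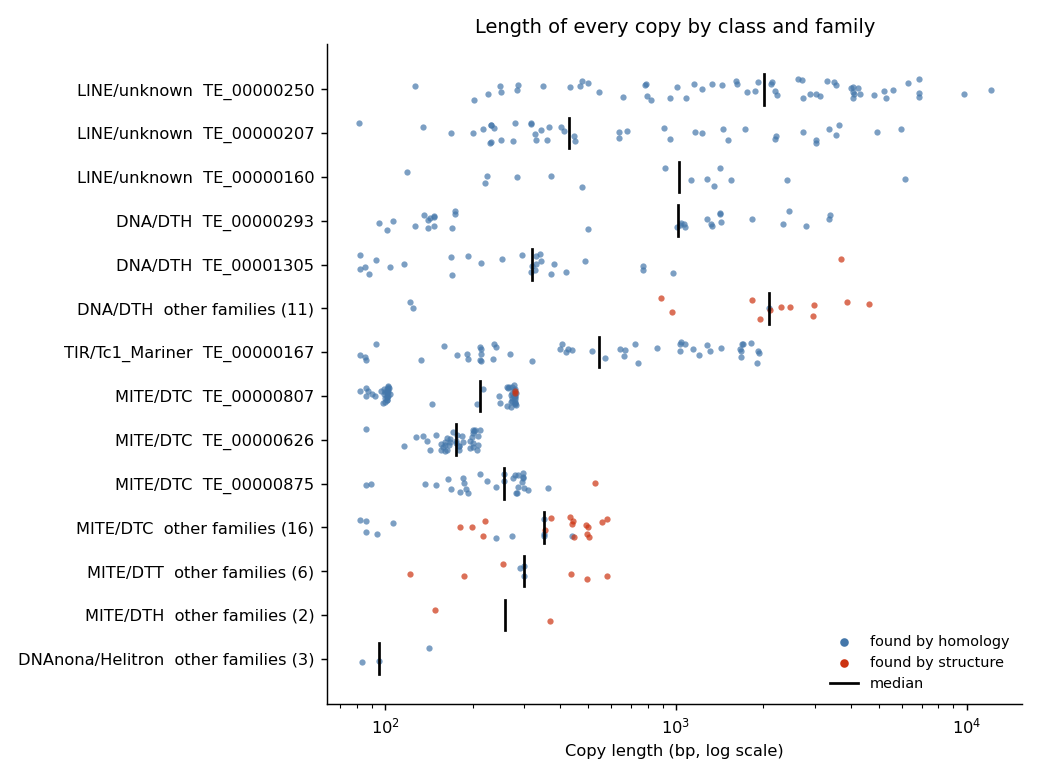
Length of each of the 411 copies on a log axis, by label and family; points are copies, spread vertically for sight, the vertical line is the median, and families with under 10 copies are pooled. TE_00000250 reaches 12119 bp, the TE_00000807 copies fall into a group near 100 bp and a group near 273 bp, and most copies found by structure belong to small families.

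The LINE label was made up of TE_00000250, TE_00000207 and TE_00000160. TE_00000250 held 60 copies and 160 kb, 69.5% of the LINE bases, TE_00000207 held 44 copies and 52.4 kb, and TE_00000160 held 14 copies and 17.9 kb. All 118 copies were found by homology, none by structure. The longest copies of the 3 families were 12119, 5966 and 6118 bp. Among the 5 longest LINE copies, 3 were nearly equal in length although they lie on different chromosomes. These TE_00000250 copies measured 6848 bp (chromosome 5, 9711 to 16558), 6851 bp (chromosome 4, 12 to 6862) and 6854 bp (chromosome 8, 760244 to 767097), all on the minus strand. The other 2 of the 5 longest were the 12119 bp copy on chromosome 8 (745329 to 757447, minus strand) and a 9770 bp copy on an unplaced scaffold.

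LINE copies lay near chromosome ends more often than other elements. In the outer 1 Mb of the 8 autosomes, which make up 7.68% of autosome length, stood 40 of 112 autosomal LINE copies (35.7%), against 8.19% of all elements. The count rests in part on clustered copies: without runs of 6 or more copies it was 20 of 85 (23.5%). In the outer 0.5 Mb it was 11.6%, against 4.41% of all elements, and in the outer 2 Mb 44.6%, against 15.0% of all elements. By family, the outer 1 Mb held 28 of 54 copies of TE_00000250 (51.9%), 10 of 44 of TE_00000207 (22.7%) and 2 of 14 of TE_00000160 (14.3%). Smaller runs remain in all these counts. The 10 TE_00000207 copies stood in runs of 4, 4 and 2 copies on chromosomes 6, 5 and 1. Both TE_00000160 copies lay beside those on chromosomes 5 and 6. The TE_00000250 share was 8 of 27 (29.6%) without runs of 6 or more. In the outer 0.5 Mb it was 3 of 54 (5.56%) with all copies, near the 4.41% of all elements. None of 74 DNA/DTH copies and 1 of 45 autosomal Tc1_Mariner copies lay in the outer 1 Mb. MITE/DTC, with 12 of 155 (7.74%), was near the share of the length. The LINE copies nearest to an end, all of TE_00000250, stood 11 bp from the end of chromosome 4, 5299 bp from the end of chromosome 8 and 9710 bp from the end of chromosome 5. The end is taken here as the last annotated feature or base 1.

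The direction of the LINE copies was also uneven. Copies of 1 family on 1 strand within 1 kb of each other were taken as 1 insertion. Of 22 TE_00000207 insertions on the autosomes, 19 (86.4%) had their 3′ end towards the nearer chromosome end, and all 5 in the outer 1 Mb did. Those 5 stood on 3 chromosomes and are not separate places. On chromosomes 5 and 6 they form 1 run each when neighbours up to 10 kb apart are joined. With copies up to 50 kb apart taken as 1, it was 14 of 17 (82.4%). TE_00000250 had 31 of 46 insertions (67.4%) in that direction and TE_00000160 6 of 12. The TE_00000250 insertions include clustered copies over 1 kb apart, such as a run of 7 copies on chromosome 1 that all pointed that way. They were not joined further, so the share for this family leans on clusters. Across all elements with a strand the share was 49.8% of 65229 insertions, and in the rare labels with more than 20 insertions other than LINE/unknown it ran from 46.4% (Tc1_Mariner) to 50% (MITE/DTC). All 3 TE_00000250 copies within 100 kb of an end had the 3′ end outwards, while the 23 insertions in the outer 1 Mb were split 15 to 8.

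**Figure D2:**
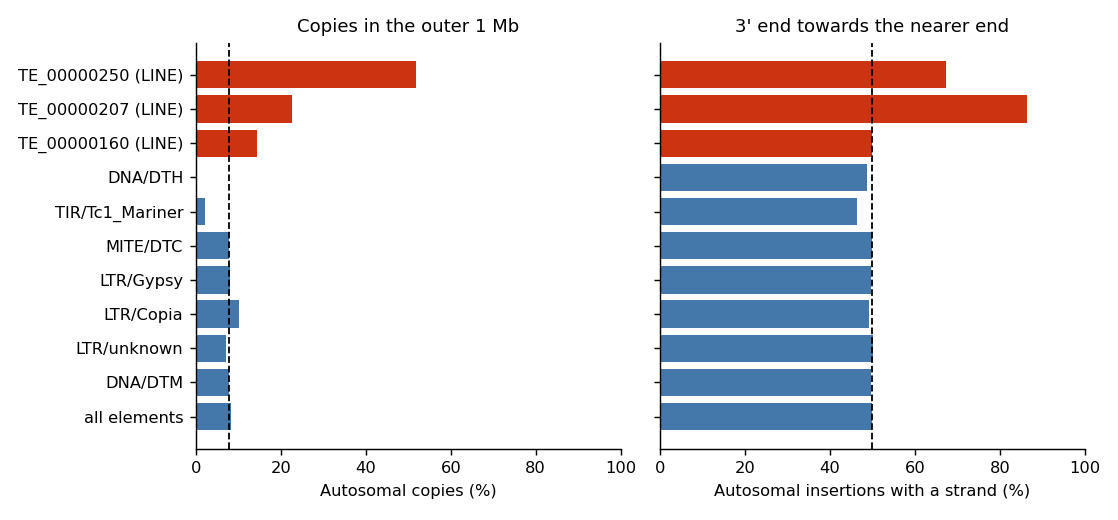
Left, the share of autosomal copies in the outer 1 Mb of a chromosome, with a dashed line at the share of autosome length (7.68%); right, the share of autosomal insertions whose 3′ end points to the nearer chromosome end, with a dashed line at 50%. The LINE families (red) stand to the right on the left plot, TE_00000250 at 51.9% with its clustered copies included. Without runs of 6 or more copies it was 29.6%. TE_00000207 stands apart on the right plot at 86.4%.

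TE_00000250 was clustered on chromosomes 8 and 1. On chromosome 8, between 656361 and 771319, 20 copies in 115 kb held 50.9 kb, 31.9% of the bases of the family, with 7 copies on the plus and 13 on the minus strand. They fall into runs of 6 and 14 copies when neighbours up to 10 kb apart are joined, and include the 12119 bp copy. Mp8g00530 lies within the longer run, and Mp8g00540 reaches past its end. On chromosome 1, between 8453639 and 8498511, 7 copies held 29453 bp, all on the minus strand, with no gene between them. Copies of a run share a location and are not independent of each other. The 5 copies of TE_00000869, a MITE/DTM family, all lay within 3 kb of a TE_00000250 copy.

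TE_00000207 was often listed in pieces. A pair of blocks on chromosome 5, at 13691154 to 13697015 and at 13715015 to 13720876, both spanned 5862 bp on the plus strand. The first was listed as pieces of 3031, 2207 and 231 bp and the second as pieces of 3031, 2192 and 231 bp. A 231 bp piece also closed the block at 15522292 to 15525052 and a 230 bp piece the one at 26658788 to 26668464. Of 44 copies, 37 had a copy of the same family within 1 kb. The families TE_00000160 and TE_00000207 also met. A TE_00000207 copy stood on the 3′ side of 7 of 14 TE_00000160 copies, within 3 kb and on the same strand in all 7, at gaps of 25 to 1211 bp. The TE_00000160 copies starting at 1971589 and 1972612 on chromosome 1 shared the same TE_00000207 copies. The 1211 bp gap of the latter spans the former. At 14578219 to 14579573 on chromosome 8, for example, a 1355 bp TE_00000160 copy was followed after 25 bp by a TE_00000207 copy of 4923 bp.

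LINE copies lay apart from genes: 115 of 118 (97.5%) were wholly outside them, 3 touched an exon and none was in an intron. For all elements 90.7% were outside, for Gypsy elements 96.7%. The median distance from a LINE copy outside genes to the nearest gene was 7.80 kb on the autosomes, against 5.60 kb for all elements and 8.49 kb for Gypsy. The exon contacts were all by TE_00000250. It covered 702 of 1281 exonic bp of Mp8g00540, all of them coding, 502 bp of Mp8g19040 and 451 bp of MpVg01090. In the 1 kb before the start of a gene, LINE copies stood by 7 genes, on the same strand as the gene at 1 and on the other at 6. These were 6 copies, as the same copy stood before MpVg01090 and MpVg01095. The nearest were 6 bp from Mp2g14965a, 67 bp from MpVg01095, 147 bp from Mp5g12820 and 589 bp from Mp8g13020, and the copy in the first exon of MpVg01090 reached across its start. LINE bases were shared with another class at 0.0104%.

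DNA/DTH rested on a large scattered family, a family confined to a few places, and many families of 1 copy. TE_00000293 had 32 copies on all 8 autosomes and 32.0 kb, 43.6% of the DTH bases, up to 3389 bp, with none in a gene. A copy of the DTM family TE_00001217 lay within 3 kb of 17 of them, on the 3′ side in 16 and on the same strand in 16, at a median gap of 1518 bp. TE_00001305 had 28 copies, of which 24 were on chromosome 3. Without this family chromosome 3 held 9 of the other 46 DTH copies. Of 13 families 9 had 1 copy each, and all 9 were found by structure. No DTH copy was annotated on the 7.54 Mb of the V chromosome. The autosomes held a mean of 0.351 DTH copies per Mb, a density at which V would hold few.

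Of the 24 TE_00001305 copies on chromosome 3, 23 stood in runs beside peroxidase genes, and 1 of 82 bp stood alone. MpPOD genes are named as class III peroxidases, secreted enzymes known for oxidising cell wall phenolics. One run held 13 copies in 5503 bp (23898740 to 23904242) and ended 993 bp before the start of MpPOD37 (Mp3g22700). The other held 10 copies in 17489 bp (18718012 to 18735500) and enclosed MpPOD33 (Mp3g18410) and Mp3g18420. Its last copy, 3684 bp and found by structure, lay 191 bp before the start of Mp3g18420, and another copy ended 831 bp before MpPOD33. Each run held copies on both strands. The 4 copies on other chromosomes were short, 82 to 116 bp, and 1 of them touched an untranslated exon part of Mp8g04840 with 85 bp. These runs were picked out after their positions had been seen.

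**Figure D3:**
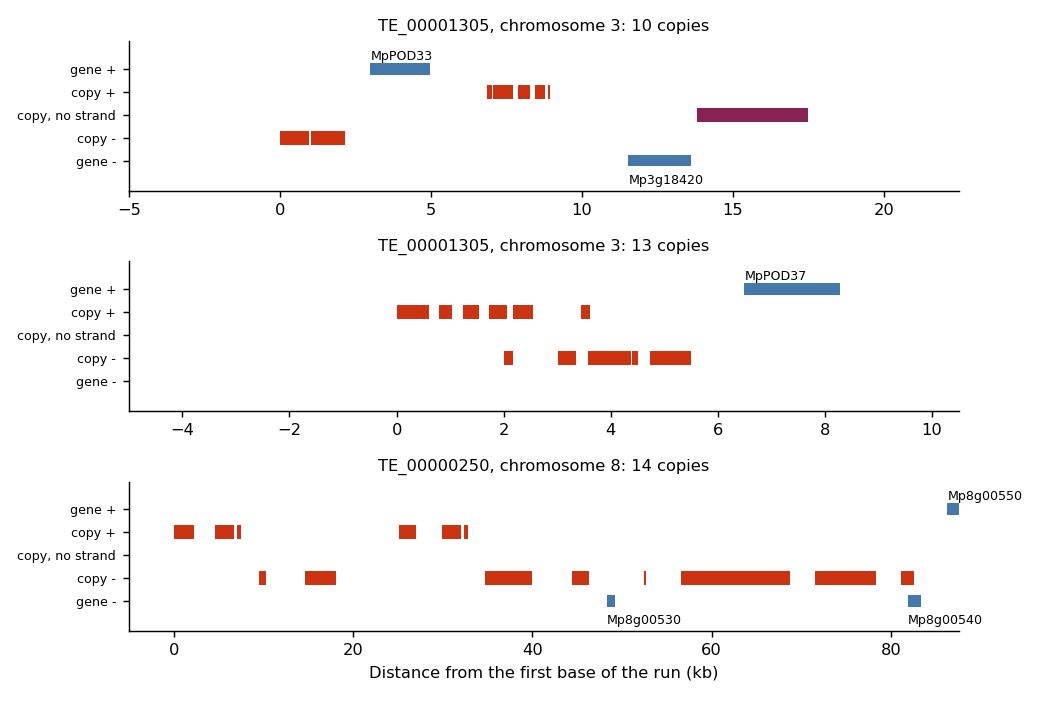
Maps of both TE_00001305 runs on chromosome 3 and of the longer TE_00000250 run on chromosome 8, as distance in kb from the first base of each run; red bars are copies on their strand, the purple bar is the copy found by structure, which has no strand, and blue bars are genes. The 13-copy run ends 993 bp before MpPOD37, the 10-copy run encloses MpPOD33, and the 14 copies on chromosome 8 spread over 82.6 kb.

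TIR/Tc1_Mariner, the single family TE_00000167, was often listed as several pieces of 1 insertion. Of its 50 copies, 35 (70%) had another within 1 kb, and joining those gave 31 insertions, 16 of them of several copies. The insertions had a median span of 1333 bp and a longest of 2646 bp, and 12 of 31 spanned 1600 to 2100 bp. In each of its 16 runs, with neighbours up to 10 kb apart joined, all copies were on 1 strand. On chromosome 4, 4 copies with 1846 bp spanned 2000 bp (7501551 to 7503550), and pairs elsewhere spanned 2015, 2012, 1977 and 1967 bp. Other runs spanned 546 to 2646 bp, and a run on chromosome 1 (7677182 to 7684578) spanned 7397 bp. The longest unbroken copies were 1930, 1915, 1896 and 1810 bp. The minus strand held 34 of 50 copies. Chromosome 4 had 13 copies and chromosome V had 4. The label DTT stands for the same superfamily, but the annotations differ: 74.1% of DTT bases also carried another class and 0.136% of Tc1_Mariner bases did.

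Of the 50 Tc1_Mariner copies 47 (94%) were wholly outside genes, against 90.7% of all elements. A copy covered 722 of 1963 exonic bp (36.8%) of Mp5g05230, of which 56 bp were coding. Copies of 1692 and 192 bp lay in an intron of MpVg01095, a gene annotated over 487 kb of the V chromosome. Upstream, a copy stood 653 bp from MpFLV3 (Mp1g00480), named as a flavodiiron protein, a group that passes electrons from photosynthesis to oxygen. Others stood 704 bp from Mp1g12260 and 873 bp from Mp8g06850. Outside genes the median distance to the nearest gene was 2.02 kb on the autosomes, against 5.60 kb for all elements and 7.80 kb for LINE copies. Within 1 kb of a gene stood 11 of 44 (25%), against 8.63% of all elements and 27.2% of MITE/DTC. Pieces of 1 insertion count apart here.

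MITE/DTC was dominated by TE_00000807 with 58 copies, TE_00000626 with 40 and TE_00000875 with 30. None of the 155 copies was on the V chromosome, where the label DNA/DTC had 355 of its 4113 copies. The autosomes held a mean of 0.756 MITE/DTC copies per Mb, and V spans 7.54 Mb, so few would be there at that density. Chromosomes 2 and 7 held 34 copies each, and chromosome 5 held 8. Of 19 families 12 had 1 copy each, all found by structure. MITE/DTC copies outside genes were a median of 2.35 kb from the nearest gene, and 37 of 136 (27.2%) were within 1 kb, against 8.63% of all elements on the autosomes. The other miniature labels were alike in this, with 310 of 1041 MITE/DTA copies (29.8%) and 299 of 1496 MITE/DTM copies. The 37 MITE/DTC copies include 21 of TE_00000807, many of them beside a gene touched by another copy of that family. Bases shared with another class made up 9.20%, mostly with DTM and unknown elements.

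TE_00000807 was found as one part of a composite block. Its 58 copies lay in 31 loci, in each of which all copies with a strand were on 1 strand. The longest copy of a locus had a median of 273 bp (145 to 282), and the 27 further copies, present in 16 loci, had a median of 101 bp (82 to 104). Copies of 3 other families stood at the same places. All 58 copies had TE_00000780 (DTM) within 3 kb, and 56 each had TE_00000174 (DTA) and TE_00000310 (unknown class). The reverse held for most of those families: 54 of 58 TE_00000780 copies (93.1%), 54 of 57 TE_00000310 copies (94.7%) and 40 of 70 TE_00000174 copies (57.1%) were near a TE_00000807 copy. The order from the 5′ side was TE_00000174, TE_00000780, TE_00000807 in 28 of 31 loci, and a TE_00000310 copy abutted TE_00000807 in 26. TE_00000310 was on the opposite strand in 51 of the 54 copies that could be oriented.

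**Figure D4:**
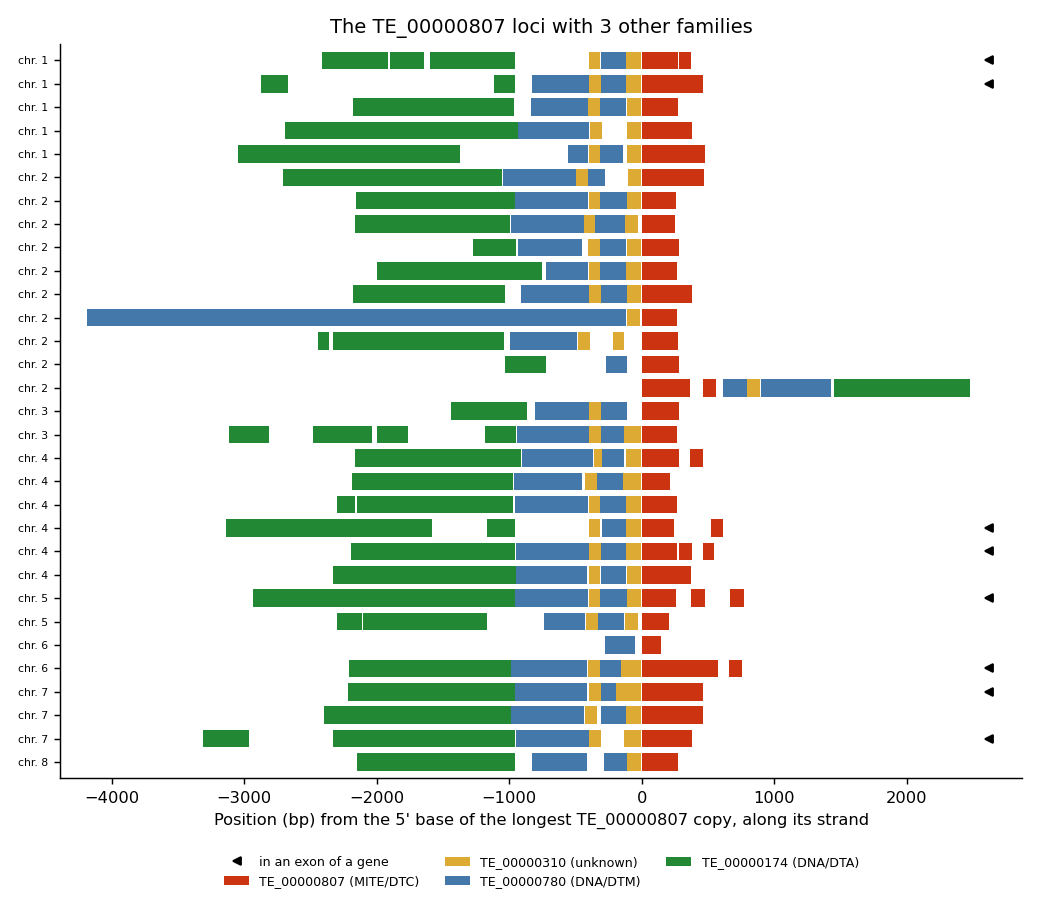
The 31 TE_00000807 loci, 1 row each, aligned at the 5′ base of the longest TE_00000807 copy and turned to its strand; bars are annotated copies of 4 families and the triangle marks a locus where TE_00000807 touches an exon. In 28 of 31 rows green, blue and red follow each other from left to right, with 1 row on chromosome 2 that has them on the other side.

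TE_00000807 copies touched exons at 8 loci, and contacts of the other block families were not counted. The 8 genes were Mp5g12630, Mp6g08630, Mp1g14830, Mp7g11270, Mp4g17540, Mp4g18190, Mp1g02760 and Mp7g17030, and in all 8 the annotated exons were entirely coding. TE_00000807 itself covered 192 of 1020 exonic bp of Mp5g12630 and 190 of 852 of Mp6g08630, and between 10 and 184 bp of the others. Elements of any class covered 99.1% to 99.6% of the exonic bases of 5 of these genes, and 39.9% to 86.0% of the remaining 3. Of the copies outside genes, 21 of 50 (42%) were within 1 kb of a gene. They include further copies at the same 8 loci, which lay beside the gene already touched, such as those 86 to 469 bp from Mp6g08630. The share is therefore not one of separate places near genes.

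The other large MITE/DTC families had companions too, at fewer copies. TE_00001267 (DTM) was within 3 kb of 27 of 40 TE_00000626 copies, and overlapped 12 of them by at least 20 bp. TE_00000147 (unknown class) was within 3 kb of 24, always on the other strand, and overlapped 14 by at least 20 bp. Where they overlap, the same bases carry both annotations. TE_00000142 (DTM) was within 3 kb of 22 of 30 TE_00000875 copies, on the 3′ side and on the opposite strand in all 21 that could be oriented. No family came as close to all copies as TE_00000780 did to TE_00000807, which it reached in 58 of 58.

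MITE/DTC outside the block met known genes in a few places. A 579 bp copy found by structure lay in exons of MpALMT2 (Mp3g01810), named after the aluminium-activated malate transporters, with 177 bp of it coding. A copy of 495 bp lay in coding exons of Mp3g01450, a gene with 98.3% of its exonic bases in elements. Copies of the family TE_00000933 covered 355 bp of Mp2g22430 and 352 bp of Mp2g22400, both on chromosome 2, and a TE_00000974 copy covered 377 bp of Mp6g20050. Mp7g15180 had 217 bp and Mp4g05420 175 bp of exons in such copies. In introns stood a 445 bp copy in MpNINJA (Mp1g04410), an adaptor that links jasmonate repressors to a co-repressor, and a 106 bp copy in Mp4g23010. Upstream, the nearest MITE/DTC copies stood 253 bp from Mp7g16185, 264 bp from Mp7g15740, 323 bp from Mp7g17800 and 354 bp from Mp8g17830. The next, 424 bp from Mp2g24720, was a TE_00000807 copy and so part of a block.

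Contact with exons went with how a copy was found. EDTA, the tool named in the annotation, lists copies found by homology and copies found by the structure of an intact element. In the rare classes 39 copies (9.49%) were found by structure, against 1.48% of all copies. Common miniature labels were alike in this, with 11.6% of MITE/DTA and 8.33% of MITE/DTM beside 12.3% of MITE/DTC. DNA/DTH had 16.2%, against 2.50% to 3.53% in the common DNA transposon labels. Of the 39 rare copies found by structure, 19 (48.7%) touched an exon, and of the 372 found by homology 17 (4.57%) did. In DNA/DTH it was 8 of 12 against 3 of 62, with median lengths of 2386.5 and 323.5 bp, so that length moved with it and its part was not tested. Over the common classes together it was 20.1% of copies found by structure against 4.94% of those found by homology. The DNA transposon labels DNA/DTC (62.8% by structure) and DNA/DTT (54.2%) were high as well, whereas in Gypsy elements it was 0.462% by structure against 0.779% by homology. Among the miniature elements, MITE/DTC had 9 of 19, while MITE/DTM had 15 of 150 and MITE/DTA 11 of 139.

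**Figure D5:**
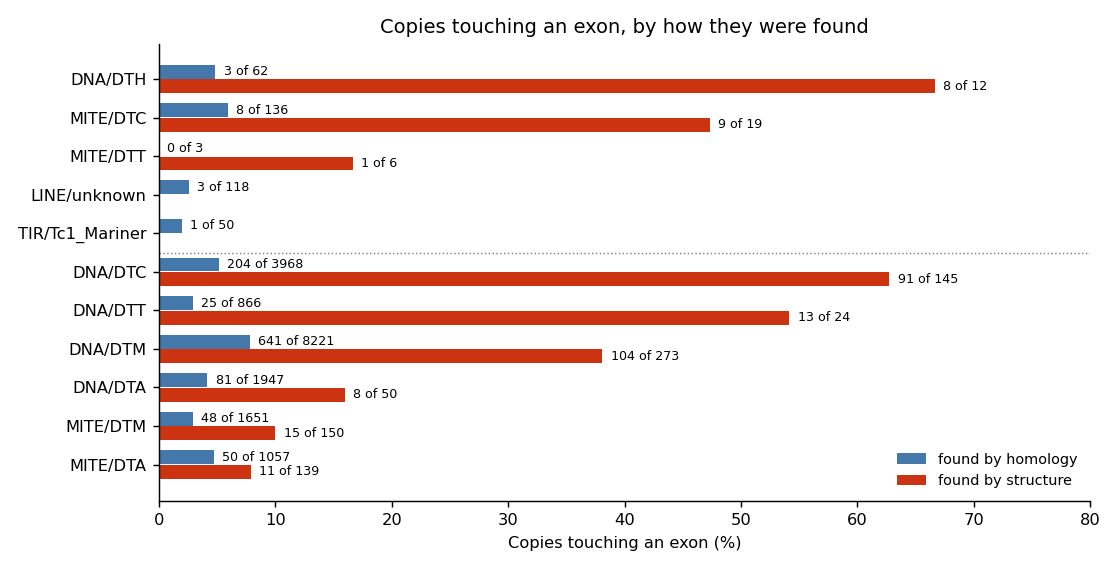
Share of copies that share at least 1 bp with an exon, by label and by how the copy was found, with counts beside the bars; rare labels are above the dotted line and common labels below. Copies found by structure touch exons at 66.7% in DNA/DTH, 62.8% in DNA/DTC and 10% in MITE/DTM.

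DNA/DTH copies shared bases with the exons of 13 genes. The longest, a 4598 bp TE_00000878 copy on chromosome 7 (16136821 to 16141418), covered 948 exonic bp of Mp7g14510, and 599 of the 1155 coding bp. A copy of TE_00000579 covered 1519 bp of Mp3g08470, all of them coding, out of 8964 exonic bp. A 2970 bp copy of TE_00000334 covered the 591 coding bp of Mp1g19060 entirely and 726 exonic bp of its neighbour Mp1g19070. All 655 exonic bp of Mp2g07470 lay in a TE_00000878 copy. Mp8g06200 and Mp8g06210 shared 1 TE_00000410 copy with 619 and 586 bp. Mp1g20250 had 566 bp, Mp3g04280 279 bp and Mp4g11320 164 bp in such copies. The family TE_00001080 had 2 copies, and both touched coding exons, with 259 bp in MpBK2B (Mp3g20950) and 119 bp in MpBK2A (Mp7g12080), genes with related names on chromosomes 3 and 7. Apart from the overlapping and peroxidase cases, upstream copies stood 433 bp from Mp3g05730, 517 bp from Mp4g04800 and 633 bp from Mp2g07480.

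The smallest labels had 2 to 9 copies. The Helitron copies were 95 bp in the coding sequence of Mp1g07800, 83 bp in an untranslated exon part of Mp6g04980 and 141 bp on an unplaced scaffold, each of its own family. MITE/DTH consisted of a 368 bp copy at 20157511 to 20157878 on chromosome 3, with 207 bp in exons of Mp3g19660, and a 148 bp copy at 25898779 to 25898926. Of 9 MITE/DTT copies 6 were found by structure, and 4 belonged to TE_00001105, on chromosomes 5 and 8. One of 254 bp shared 61 coding bp with Mp6g01090, and one of 186 bp was in an intron of Mp2g13060.

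None of the 8 DNA methylation genes looked up had a rare element in its exons, introns or upstream 1 kb. Among all 19441 genes only 0.195% had one in an exon and 0.165% upstream, so nothing can be read from this. MpMET (Mp6g18180), the gene that the mutant lacks in function, was 123 kb from the nearest, a TE_00000875 copy. The nearest case was MpCMTa (Mp6g08650), a chromomethylase that methylates outside CG sites, at 14.8 kb from a TE_00000807 copy. MpDRMa, a de novo methyltransferase, was 102 kb from a Tc1_Mariner copy, and MpCMTb 325 kb from a LINE copy. MpDNMT3a stood at 238 kb, MpDDM1, a chromatin remodeller needed for methylation of elements, at 528 kb, and MpDRMb and MpDNMT3b at over 1500 kb.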

How the data were processed

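Positions came from the deposited annotations of elements and of genes, in base pairs counted from 1 (MpTak1 version 5.1, revision 2). EDTA is named in the rows of the element file, with no version or settings in either file. Trim Galore and STAR are listed per the submitters' processing notes, but no value made with them was used. The authors' element rows carry no score. A copy was exonic with at least 1 bp in an exon, intronic inside a gene without that, and otherwise outside. Upstream meant the 1000 bp before a gene's start. Companions were sought within 3 kb. Symbols came from RefSeq (MpTak2 version 7.1), matched by locus number and by gene length within 5%: of 17624 pairs 16479 were within it, and 2860 had a symbol.

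The genes named are, for each label, those with most exonic or intronic bp in members and those with the nearest upstream copy, with the longest copies. Members, lists and rules were chosen with earlier results of these data known. Chromosome ends, direction, runs and composite blocks were chosen after seeing the positions. Python 3.11.15, pandas 2.3.3, numpy 2.4.6 and matplotlib 3.10.9 were used, and the interval code was tested on simulated data.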

Additional observations from a re-analysis of the deposited data

How the results depend on the processing

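The annotation gives 1 value per genome, so no depth or replicate error limits the counts, only what EDTA called. The median length of 286 bp was 494 bp for copies of at least 200 bp and 400 bp with copies joined within 100 bp. Genes with an upstream copy numbered 32 at 1 kb, 13 at 500 bp and 58 at 2000 bp. The share of bases with another class, 1.34%, was 0.759% at 200 bp or more, 1.45% on the autosomes and 1.07% without unknown elements. The share with a family neighbour within 1 kb, 45.5%, was 36.7% for copies of at least 200 bp, 28.7% within 100 bp and 59.6% within 10000 bp. The share of LINE copies in the outer 1 Mb, 35.7%, was 11.6% in the outer 0.5 Mb (4.41% of all elements), 44.6% in the outer 2 Mb (15.0% of all elements) and 23.5% without the runs, alternatives chosen after seeing the data. Some of these shifts follow from the settings: leaving out short copies cannot lower a median, and wider windows cannot lose genes, neighbours or copies. The cause of the others was not tested. Of 112 values for the 4 labels with most copies, 26 moved past 1.5 times, for counts and bases, or past a 95% interval, for medians and shares (10 up and 16 down). That interval counted each copy, and for shared bases each base, as independent, which they are not, so it serves only as a yardstick. It is narrow for shared bases and wide for medians: the DNA/DTH median of 376.5 bp stayed within it at 874 bp with pieces joined. No paired analysis was possible because the files hold no library values, and for the same reason no replicate could be left out.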
